A study of Mus musculus with 10 samples.

Results

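The expression of 31 genes of bile duct cells and of epithelial cell junctions was followed in primary liver sinusoidal endothelial cells (LSEC), the lining of the liver's capillaries, of mice with and without a Gata4 deletion. The 31 were taken by name from the 24704 genes of the array, as markers of the duct epithelium and as parts of its junctions. They were chosen with earlier results of these data known, and all 31 were measured. There were 5 Gata4-LSEC-KO arrays and 5 control arrays. For the Gata4-LSEC-KO group, carriers of the Cre transgene C57BL/6N-Tg(Clec4g-icre)1.1Sgoe had been bred with mice of the stock Gata4tm1.1Sad/J, in which Gata4, a zinc finger transcription factor gene, is floxed. The Cre enzyme is made under sequences of Clec4g, a gene of the sinusoidal endothelium, so that other liver cells are not its intended target. The control mice were siblings labelled WT. No label says whether they carried the transgene or a floxed allele, or gives the age or sex of any mouse. Each array holds the cells of 3 pooled mice, taken after collagenase perfusion and a density gradient and capture on CD146 MicroBeads, which bind the product of Mcam. No sample is a pure cell population by construction, since any cell held back by the beads adds its RNA.

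Bile ducts are tubes of cholangiocytes, epithelial cells that modify bile and carry it out of the liver. Like other simple epithelia, they are held together by desmosomes, which tie keratin filaments of neighbouring cells to each other, by adherens junctions built on E-cadherin, and by tight junctions sealed by claudins. Endothelial cells have adherens and tight junctions too, but build them from other cadherins and claudins, and keratins and desmosomal cadherins are known mainly from epithelia. Ducts run beside the portal vein branches, and hepatocytes share some of the duct genes, among them Krt8, Krt18 and Cdh1.

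All values are deposited log2 values of a gene's probe set, so a difference of 1 is 2-fold. Differences are Gata4-LSEC-KO minus control, given ± their standard error (SE), and "KO" stands for Gata4-LSEC-KO. "Past the threshold" means an adjusted p under 0.05 by limma, a linear model fitted to all 24704 genes with Benjamini-Hochberg adjustment. The value of 1 gene is not set against that of another, since probes differ in brightness. The median gene read 3.70 on an array. Control replicate 1 stood apart, with correlations across genes of 0.920 to 0.944 with the other arrays, against 0.969 to 0.988 among the other 9. The Gata4 probe set read 8.59 ± 0.24 in the KO arrays and 8.71 ± 0.15 in the control arrays (SD, n = 5 each). The sources used here do not place its probes relative to the deleted part, so this checks no label. Of 12 genes shared by endothelia, all had group means above the array median in both groups, with a list mean of 9.57 to 9.97 across the KO arrays and 9.52 to 9.75 across the controls.

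Every one of the 31 genes had a higher mean in the KO arrays than in the controls. Of them, 13 passed the threshold as higher, 0 passed as lower and 18 did not pass, while over all genes 1.3% passed as higher and 0.846% as lower. At an unadjusted p under 0.05, limma gave 28 of the 31 as higher and 0 as lower, against 7.07% of all genes as higher. The median log2 fold change was 1.40 for the 31 and -0.02 for all genes. At least a 2-fold difference was seen in 23 of the 31, which include the 13 that passed, and in 1.51% of all genes. For 13 of the 31 genes the 2 groups did not overlap, with every KO array above every control array, as for 2.55% of all genes. Of these 13, 8 also passed the threshold. The other 5 that passed did so although the groups overlapped. Because the 31 were chosen with earlier results of these data known, their counts beside the shares of all genes are a description. More cells of a type and more RNA per cell cannot be told apart in such samples.

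**Figure D1:**
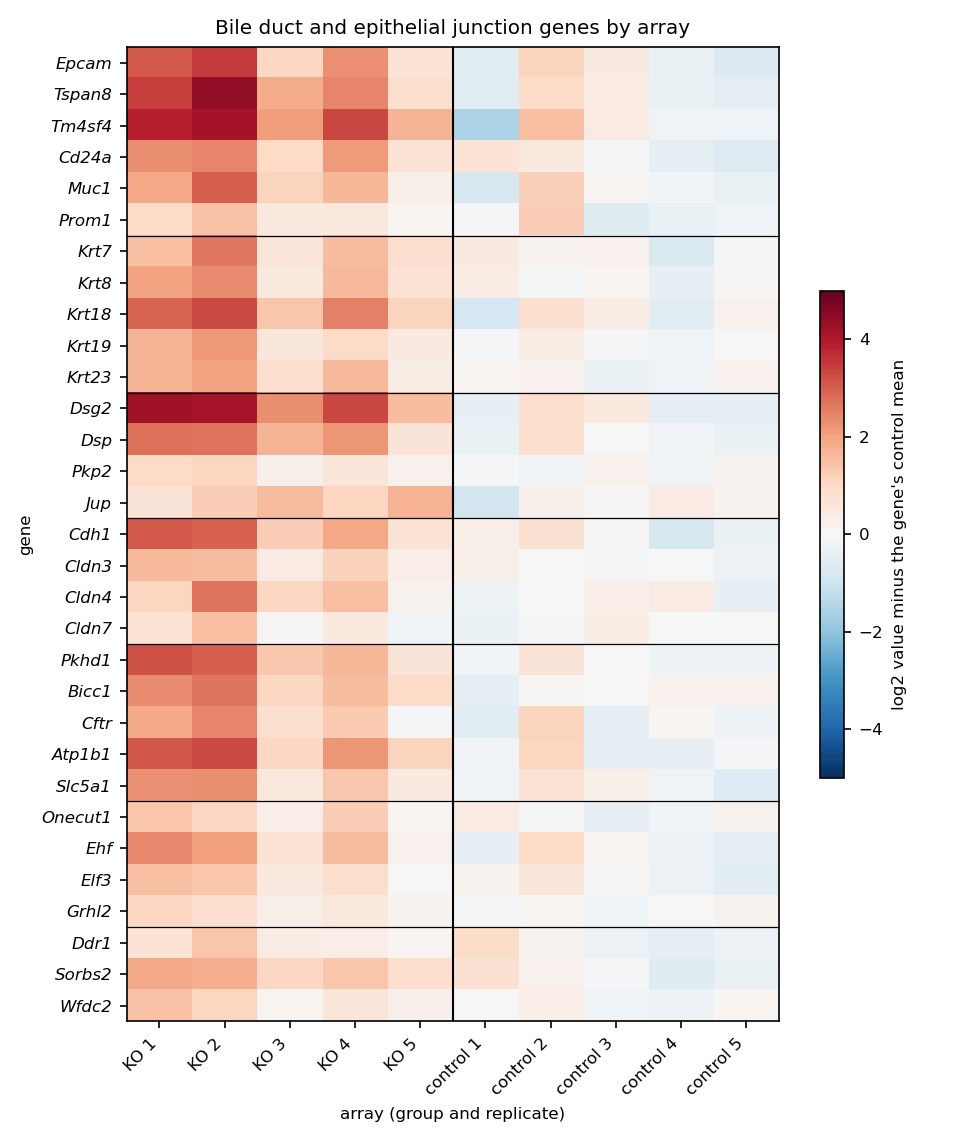
Log2 value of each of the 31 genes (rows, in blocks by role) minus that gene's control mean, for the 5 KO arrays on the left and the 5 control arrays on the right. KO replicates 1 and 2 are the reddest columns, KO replicate 5 is the lowest KO array in 26 rows, and Jup, highest in KO replicate 5, runs against the rest.

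The KO arrays differed widely among themselves. The mean over the 31 genes was 6.02, 6.30, 4.87, 5.49 and 4.53 in KO replicates 1 to 5, against 3.82, 4.49, 3.98, 3.73 and 3.77 in control replicates 1 to 5. No KO array lay under a control array, but KO replicate 5 was next to control replicate 2. KO replicates 1, 2 and 4 were each above both KO replicates 3 and 5 in 28 of the 31 genes, as in 13.2% of all genes. This order was known when the genes were chosen and is a description only. The exceptions were Prom1, Jup and Ddr1. Replicate 1 or 2 was the highest KO array for 30 genes, against 36.6% of all genes, and replicate 5 was the lowest for 26, against 23.8% of all genes. KO replicate 5 was under the highest control value in 17 genes and KO replicate 3 in 12. The same was true of KO replicates 1 and 4 in 2 genes each and of KO replicate 2 in 0 genes.

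Among the controls, replicate 2 was the highest for 18 of the 31 genes, against 17.9% of all genes. It was the highest control in 13 of the 18 genes whose groups overlapped. The SD was larger in the KO arrays than in the controls for 26 of the 31 genes, as for 41.9% of all genes. The median SD over the 31 was 0.81 among KO arrays and 0.53 among controls, against 0.21 and 0.24 over all genes. Within the groups the genes varied together. With each group's mean subtracted, the correlation of a gene with the mean of the other 30 over the 10 arrays was above 0.5 for 30 of the 31 genes, with a median of 0.85. Without control replicate 1, the median was 0.94. These arrays share pools, normalization and any differences in cell make-up, so the correlations are a description. The KO array order was also known when the genes were chosen, which favours high correlations among them. The share of all genes with such correlations is not given here.

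The surface proteins of duct cells included some of the widest differences. Tm4sf4, a membrane protein of liver and gut epithelium, read 8.68, 8.97, 6.91, 8.16 and 6.49 in the KO arrays, against 3.25, 6.33, 5.22, 4.62 and 4.61 in the controls. Its lowest KO value lay just above its highest control value, in control replicate 2. It rose 8.21-fold (log2 fold change 3.04 ± 0.59, adjusted p = 0.0220). Tspan8, a tetraspanin of epithelia, read 7.22, 8.18, 5.61, 6.21 and 4.58 in the KO arrays, against 3.21, 4.73, 4.17, 3.42 and 3.28 in the controls. Control replicate 2 was above KO replicate 5, so the groups overlapped, and Tspan8 rose 6.06-fold (2.60 ± 0.58, adjusted p = 0.0453). Cd24a, a sialoprotein also found on blood cell precursors, rose 3.28-fold (1.71 ± 0.38, adjusted p = 0.0434). Its values in KO replicate 5 and control replicate 1 were equal at 2 decimals, 5.50 in each, and the KO value was the lower.

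Epcam, the epithelial adhesion molecule used to sort cholangiocytes, did not pass with all arrays. It read 7.05, 7.48, 5.02, 6.27 and 4.67 in the KO arrays, against 3.48, 5.11, 4.43, 3.66 and 3.29 in the controls, with a log2 fold change of 2.11 ± 0.55 (95% interval 0.91 to 3.30) and an adjusted p of 0.0811. Control replicate 2 exceeded KO replicates 3 and 5. Without KO replicate 5 Epcam passed (adjusted p = 0.0337). The membrane mucin Muc1 was at 1.59 ± 0.48 (adjusted p = 0.131), and it passed without KO replicate 5 (0.0486). Prom1, which encodes the stem cell antigen CD133, was at 0.70 ± 0.34 (adjusted p = 0.408). Its second highest value of all 10 arrays was 4.14, in control replicate 2, against 4.35 in KO replicate 2. Tm4sf4 lost its call when any 1 of KO replicates 1, 2 and 4 or control replicates 4 and 5 was left out (adjusted p reaching 0.0658). Cd24a did so for the same arrays and for control replicates 2 and 3 (reaching 0.113). Tspan8 kept its call only without KO replicate 5, and its adjusted p reached 0.117 without 1 of the others.

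All 5 keratins had groups that did not overlap, and 3 passed. Krt18, the type I keratin of simple epithelia, read 7.37, 7.76, 5.83, 6.95 and 5.55 in the KO arrays, against 3.61, 5.26, 4.80, 3.89 and 4.66 in the controls, and rose 4.75-fold (2.25 ± 0.45, adjusted p = 0.0253). Its filament partner Krt8 read 7.39, 7.76, 5.87, 6.99 and 6.12 in the KO arrays, against 5.74, 5.29, 5.46, 4.98 and 5.43 in the controls, and rose 2.72-fold (1.44 ± 0.33, adjusted p = 0.0477). The pair is made in hepatocytes as well as ducts, and the starts of the 2 genes lie 23.9 kb apart on chromosome 15. Krt23 rose 2.48-fold (1.31 ± 0.28, adjusted p = 0.0364), from a control mean below the array median.

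The keratins that separate ducts from hepatocytes, Krt7 and Krt19, did not pass. Krt19 read 5.21, 5.67, 4.10, 4.45 and 3.96 in the KO arrays, against 3.40, 3.88, 3.46, 3.33 and 3.49 in the controls, where the highest control and the lowest KO array differed by less than 0.1. Its log2 fold change was 1.17 ± 0.30 (95% interval 0.51 to 1.82, adjusted p = 0.0774). For Krt7 the values were 5.90, 7.06, 5.03, 5.95 and 5.25 in the KO arrays and 4.88, 4.59, 4.61, 3.67 and 4.31 in the controls, with a log2 fold change of 1.42 ± 0.35 (95% interval 0.65 to 2.19, adjusted p = 0.0664). Krt19 passed without KO replicate 5 (0.0386), and Krt7 without KO replicate 3 (0.0456) or control replicate 1 (0.0459). Krt18 lost its call when any 1 of 6 arrays was left out, KO replicates 1, 2 and 4 and control replicates 3, 4 and 5 (adjusted p reaching 0.0712). Krt8 and Krt23 did so for these 6 and for control replicate 2 (reaching 0.121 for Krt8 and 0.0990 for Krt23).

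Desmosome genes held the largest difference among the 31. Dsg2, the desmosomal cadherin of simple epithelia, read 8.26, 8.14, 6.34, 7.36 and 5.57 in the KO arrays, against 3.59, 4.85, 4.51, 3.55 and 3.55 in the controls. All KO arrays were above all controls, and the nearest values were 5.57 in KO replicate 5 and 4.85 in control replicate 2. Dsg2 rose 8.75-fold (3.13 ± 0.50, adjusted p = 0.00752), and its call held whichever 1 array was left out (adjusted p up to 0.0273). Dsp, which encodes desmoplakin, the linker from the desmosome to keratin filaments, read 5.95, 5.93, 4.91, 5.41 and 3.87 in the KO arrays, against 2.89, 4.06, 3.18, 3.07 and 2.88 in the controls. Control replicate 2 exceeded KO replicate 5, and Dsp rose 3.99-fold (2.00 ± 0.38, adjusted p = 0.0206). That call was lost when any 1 of the same 6 arrays as for Krt18 was left out (adjusted p reaching 0.0637). Pkp2, an armadillo protein of the desmosomal plaque, did not pass at 0.64 ± 0.18 (adjusted p = 0.113), although its lowest KO value of 3.52 was above its highest control value of 3.50.

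Jup had another array order than the genes above. It encodes plakoglobin, an armadillo protein found in desmosomes and also in adherens junctions, those of endothelial cells included. Jup read 7.93, 8.51, 8.87, 8.36 and 9.01 in KO replicates 1 to 5, against 6.37, 7.54, 7.36, 7.70 and 7.47 in control replicates 1 to 5. The groups did not overlap, and Jup rose 2.37-fold (1.25 ± 0.27, adjusted p = 0.0359). Among the KO arrays it was highest in replicate 5 and lowest in replicate 1, whereas Dsg2 was highest in replicate 1 and lowest in replicate 5. With group means subtracted, its correlation with the mean of the other 30 genes was -0.42 over 10 arrays and -0.72 without control replicate 1, where the next lowest among the 31 was 0.56 (Ddr1) over 10 arrays and 0.69 (Cldn4) without that control. Jup lost its call when any 1 of KO replicates 2 to 5 or control replicates 2, 3 and 5 was left out (adjusted p reaching 0.0846).

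**Figure D2:**
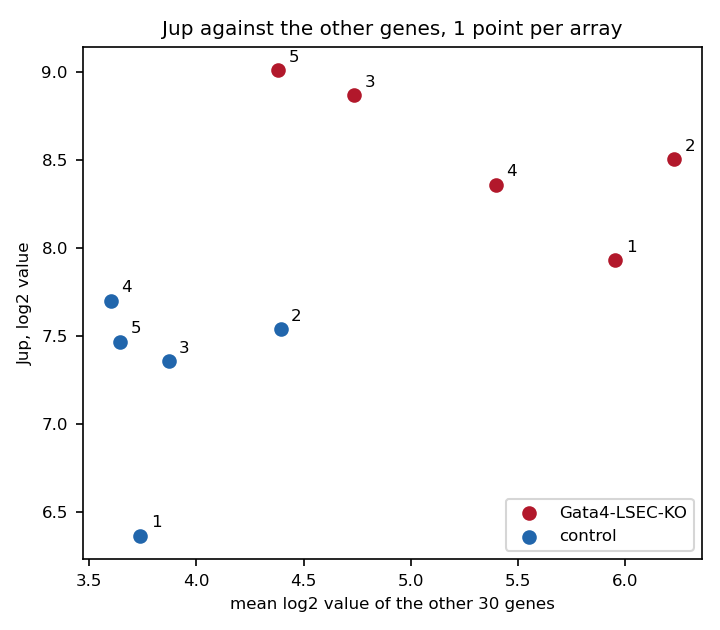
Log2 value of Jup against the mean log2 value of the other 30 genes, 1 point per array, labelled by replicate number, KO in red and control in blue. KO replicates 3 and 5 combine the lowest KO means of the 30 genes with the highest Jup values, 8.87 and 9.01.

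Of the adherens and tight junction genes 0 of 4 passed with limma. At an unadjusted p under 0.05 limma gave 3 of the 4 as higher, against 7.07% of all genes. Cdh1, the gene of E-cadherin, read 7.998, 7.85, 6.14, 6.85 and 5.59 in the KO arrays, against 5.22, 5.67, 4.96, 4.13 and 4.59 in the controls, where control replicate 2 was just above KO replicate 5. Its log2 fold change of 1.97 ± 0.46 (95% interval 0.97 to 2.97) had an adjusted p of 0.0512, and it passed without KO replicate 5 (0.0186) or control replicate 1 (0.0468). Cldn3, a sealing claudin that hepatocytes and ducts both make, read 6.63, 6.55, 5.40, 6.14 and 5.32 in the KO arrays, against 5.32, 5.04, 4.94, 5.04 and 4.71 in the controls. These groups met at 5.32 and 5.32, KO replicate 5 and control replicate 1, with KO above, and the log2 fold change was 1.00 ± 0.26 (95% interval 0.44 to 1.57, adjusted p = 0.0793). Cldn4, whose start lies 39.3 kb from that of Cldn3 on chromosome 5, was at 1.30 ± 0.37 (adjusted p = 0.114), with KO replicate 2 the highest at 6.10. Cldn3 and Cldn4 also passed without KO replicate 5 (0.0314 and 0.0322). Cldn7 had the smallest difference of the 31 at 0.52 ± 0.28 (95% interval -0.09 to 1.12, adjusted p = 0.467), and its KO replicates 3 and 5 lay within the control range.

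Genes of the cilium and of transport across the duct wall followed the same arrays. Pkhd1, which encodes fibrocystin of the primary cilium and whose human counterpart is mutated in recessive polycystic kidney and liver disease, read 6.34, 6.15, 4.48, 4.83 and 3.78 in the KO arrays, against 3.01, 3.81, 3.14, 2.90 and 2.89 in the controls. It rose 3.90-fold (1.96 ± 0.44, adjusted p = 0.0459), with KO replicate 5 just under control replicate 2. Bicc1, an RNA-binding protein whose loss causes cysts in mice, read 7.57, 7.88, 6.25, 6.78 and 6.16 in the KO arrays, against 4.75, 5.28, 5.19, 5.42 and 5.42 in the controls. Here the groups were well apart, and Bicc1 rose 3.28-fold (1.71 ± 0.32, adjusted p = 0.0178). Its call held whichever 1 array was left out (adjusted p up to 0.0491). Atp1b1, a subunit of the sodium pump, read 8.48, 8.67, 6.42, 7.59 and 6.49 in the KO arrays, against 5.25, 6.45, 4.88, 4.97 and 5.32 in the controls, and rose 4.46-fold (2.16 ± 0.47, adjusted p = 0.0389).

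The chloride channel gene Cftr, which drives bicarbonate-rich secretion by ducts, did not pass at 1.27 ± 0.45 (adjusted p = 0.214), with values of 4.15, 4.71, 3.06, 3.57 and 2.21 in the KO arrays and 1.70, 3.40, 1.88, 2.36 and 2.01 in the controls. Both group means were below the array median. Slc5a1, a sodium-coupled glucose transporter, did not pass at 1.40 ± 0.40 (adjusted p = 0.114). The call of Pkhd1 held only without KO replicate 5 (adjusted p reaching 0.117 without 1 of the others), and Atp1b1 lost its call when any 1 of the same 6 arrays as for Krt18 was left out (reaching 0.103).

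Of the 4 transcription factor genes 0 passed with limma. At an unadjusted p under 0.05 limma gave 4 of 4 as higher, against 7.07% of all genes. Onecut1, a regulator of duct development that is also active in hepatocytes, was at 0.81 ± 0.26 (adjusted p = 0.160). Ehf and Elf3, ETS factors of epithelia, were at 1.39 ± 0.41 (adjusted p = 0.131) and 0.85 ± 0.30 (adjusted p = 0.208). Ehf passed without KO replicate 5 (0.0451). Ehf read 5.12, 4.79, 3.45, 4.33 and 2.95 in the KO arrays, in the KO array order of Dsg2, against 2.35, 3.74, 2.82, 2.50 and 2.29 in the controls. Grhl2, a grainyhead factor that maintains epithelial junction genes, was at 0.57 ± 0.17 (adjusted p = 0.119). Its KO arrays read 3.68, 3.51, 2.95, 3.19 and 2.83, against 2.54, 2.77, 2.46, 2.70 and 2.83 in the controls, which did not overlap, although KO replicate 5 and control replicate 5 both rounded to 2.83.

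DNA motifs of these factor families and of GATA factors were looked up in the RefSeq promoter windows of the 31 genes, 250 bases before to 50 bases after each start (build GRCm38.p6). The table held 31 windows of 23 of the genes. Both strands were read. The grainyhead letters, AACCNGTT, were in 3 of the 31 windows (Muc1 and both windows of Prom1), against 2.09% of 32851 windows of all genes. The ONECUT letters, ATTGAT, were in 3 (Krt8, Sorbs2 and Tspan8), against 7.54% of all windows. The letters of ETS factors, CGGAAG, were in 2 (both of Cldn7), against 16.9% of all windows. Those of GATA factors, AGATAA, were in 1 (Krt8), against 11.2% of all windows, and do not overlap the ONECUT match there. A match is a description of letters and not a bound site. Only the exact letters given were searched, so other forms of these motifs were not counted. Shown here is 1 of the windows with a grainyhead match, that of Muc1. Muc1 did not pass, and neither did Prom1. Also shown are the windows of the keratin partners, of which 1 held matches (Krt8) and 1 none (Krt18). The last window is that of Jup, the gene with its own array order, which held none of the letters searched. Capitals mark the motif letters, which begin 180 bases before the start in Muc1 (grainyhead, read on the other strand) and, in Krt8, 239 bases before it for GATA and 186 bases before it for ONECUT, also on the other strand.
Muc1, chr3:89228806-89229105, plus strand: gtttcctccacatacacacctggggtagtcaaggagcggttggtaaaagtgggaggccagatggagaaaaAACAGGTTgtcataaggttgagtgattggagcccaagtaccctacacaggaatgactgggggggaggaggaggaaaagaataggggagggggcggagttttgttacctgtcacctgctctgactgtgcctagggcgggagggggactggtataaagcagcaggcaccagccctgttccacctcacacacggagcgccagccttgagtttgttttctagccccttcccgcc
Krt8, chr15:102004293-102004592, minus strand: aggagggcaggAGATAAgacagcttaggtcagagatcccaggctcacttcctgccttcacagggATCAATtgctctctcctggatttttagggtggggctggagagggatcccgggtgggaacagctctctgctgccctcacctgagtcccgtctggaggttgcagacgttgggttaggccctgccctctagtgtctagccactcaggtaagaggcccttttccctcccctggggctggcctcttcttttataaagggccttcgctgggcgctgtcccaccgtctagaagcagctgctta
Krt18, chr15:102027966-102028265, plus strand: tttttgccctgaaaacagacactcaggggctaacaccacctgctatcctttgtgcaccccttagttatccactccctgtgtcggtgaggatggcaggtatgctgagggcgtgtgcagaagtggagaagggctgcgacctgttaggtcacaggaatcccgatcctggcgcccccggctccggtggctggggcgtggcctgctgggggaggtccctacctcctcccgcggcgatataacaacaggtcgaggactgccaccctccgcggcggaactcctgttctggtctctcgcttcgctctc
Jup, chr11:100397741-100398040, minus strand: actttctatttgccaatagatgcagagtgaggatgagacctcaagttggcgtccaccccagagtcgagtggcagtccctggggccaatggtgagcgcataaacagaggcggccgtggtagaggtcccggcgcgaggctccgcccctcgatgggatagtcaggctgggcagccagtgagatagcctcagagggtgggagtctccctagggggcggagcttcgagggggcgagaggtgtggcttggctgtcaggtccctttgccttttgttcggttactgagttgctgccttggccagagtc

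Of the remaining 3 genes, Sorbs2 rose 2.63-fold (1.40 ± 0.27, adjusted p = 0.0232). It encodes an adaptor between actin and cell adhesions, and read 6.82, 6.71, 5.95, 6.28 and 5.76 in the KO arrays, against 5.66, 5.14, 4.87, 4.30 and 4.57 in the controls, with all KO arrays above all controls. Its call was lost when any 1 of the same 6 arrays was left out (adjusted p reaching 0.0718). Wfdc2, a secreted protein of ducts and glands, was at 0.71 ± 0.24 (adjusted p = 0.195). Ddr1, a collagen receptor kinase, was at 0.58 ± 0.29 (95% interval -0.06 to 1.22, adjusted p = 0.435). Its control replicate 1, at 5.92, was above 4 of the 5 KO arrays.

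**Figure D3:**
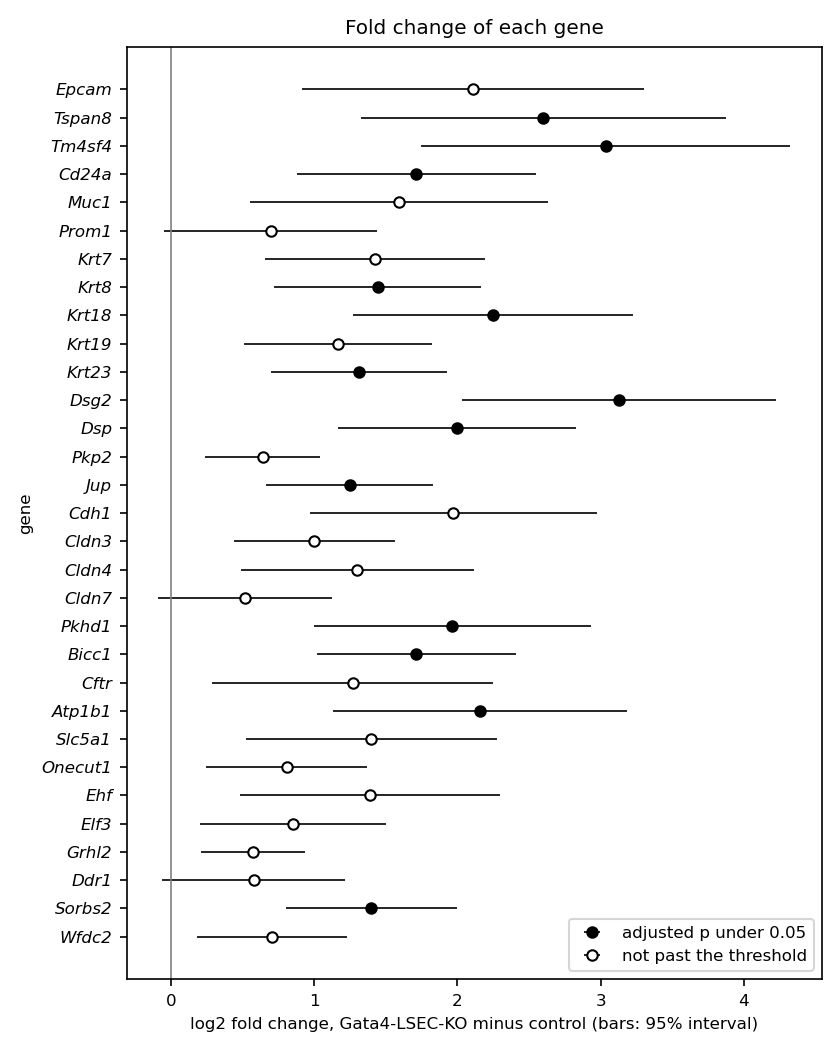
Log2 fold change of each of the 31 genes, KO minus control, with its 95% interval. Filled points passed an adjusted p of 0.05. All 31 points are right of 0, and the intervals of Prom1, Cldn7 and Ddr1 reach below it.

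The number of genes past the threshold depended on single arrays. It was 13 with all arrays, and 3, 2, 11, 2 and 19 without KO replicates 1 to 5 in turn. Without control replicates 1 to 5 it was 13, 7, 3, 3 and 2. In each of these fits all 31 differences stayed above 0, 0 genes passed as lower, and the median log2 fold change was 1.21 to 1.60. Over all genes, the share that passed as higher ran between 0.737% and 1.59% in these fits. Only Dsg2 and Bicc1 of the 31 kept their call in all 10.

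**Figure D4:**
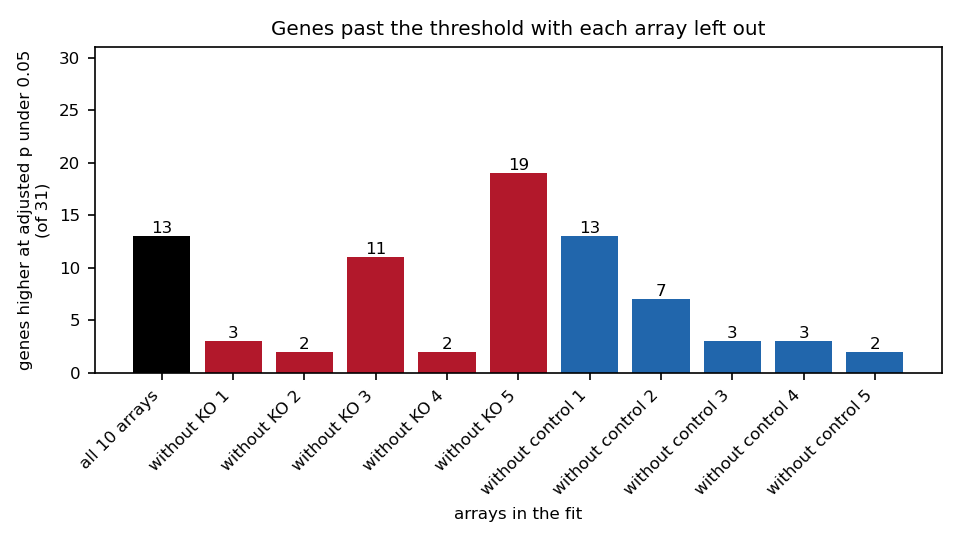
Number of the 31 genes past the threshold as higher with all 10 arrays (black) and with 1 KO array (red) or 1 control array (blue) left out. The bars run between 2 and 19.

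Epithelial genes outside the 31 gave fewer calls than the 31, while over all genes 1.3% passed as higher and 0.846% as lower. The 31 and these lists were all chosen with earlier results of these data known. Of 26 further genes of cholangiocytes, 2 rose, 0 fell and 24 did not pass, with a median log2 fold change of 0.47. At an unadjusted p under 0.05, limma gave 13 of the 26 as higher and 2 as lower, against 7.07% of all genes as higher. The KO array order 1, 2 and 4 above 3 and 5 was seen in 12 of 26, against 13.2% of all genes. The 2 that rose are not specific to ducts. They were Kcne3 (1.96 ± 0.24), a potassium channel subunit also known from sprouting endothelium, and Sox4 (1.47 ± 0.12), a factor expressed in many cell types. Sox4 read 6.43, 6.48, 6.50, 6.60 and 6.28 in the KO arrays, a narrow range, against 5.03, 5.33, 4.90, 4.99 and 4.71 in the controls. Sox9, the factor that marks duct and progenitor cells, was at 1.43 ± 0.35 (adjusted p = 0.0656) and Anxa13, an epithelial annexin, at 2.03 ± 0.51 (adjusted p = 0.0753). Sox9 was named after its values were seen. Anxa13 read 6.53, 6.39, 4.25, 5.66 and 3.90 in the KO arrays, against 3.29, 4.36, 2.82, 3.24 and 2.90 in the controls. Aqp1, a water channel of ducts that endothelium also makes, lay lower at -0.48 ± 0.18 (adjusted p = 0.237) and was likewise named after its values were seen.

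Of 22 further tight junction genes 3 rose and 0 fell, against 1.3% and 0.846% of all genes, with a median log2 fold change of 0.38. They were Ocln, the gene of occludin (1.29 ± 0.27, adjusted p = 0.0319), the cingulin relative Cgnl1 (0.96 ± 0.17, adjusted p = 0.0139) and the virus receptor and junction protein Cxadr (0.89 ± 0.17, adjusted p = 0.0232). Ocln read 5.96, 5.77, 4.69, 5.26 and 4.50 in the KO arrays, against 4.11, 4.12, 4.02, 3.52 and 3.94 in the controls, with KO replicates 1, 2 and 4 above 3 and 5. Ocln and Cxadr each lost their call when any 1 of KO replicates 1, 2 and 4 or control replicates 2 to 5 was left out (adjusted p reaching 0.0835 and 0.0718), while Cgnl1 kept its call whichever 1 array was left out. Of 16 further desmosome and hemidesmosome genes 2 rose, the laminin receptor chain Itga6 (1.16 ± 0.16) and the linker gene Dst (0.86 ± 0.18), both of which endothelium also makes. Col17a1, a hemidesmosomal collagen, fell (-0.86 ± 0.20, adjusted p = 0.0497). Col17a1 kept its call only without KO replicate 5 or control replicate 1 (adjusted p otherwise reaching 0.127), and Dst lost its call when any 1 of KO replicates 1, 3 and 4 or control replicates 3 to 5 was left out (reaching 0.0721).

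Of 30 epithelial regulators and general epithelial genes 0 passed with limma, while 10 were higher and 1 lower at an unadjusted p under 0.05. Over all genes 7.07% were higher at that unadjusted p. Nearest were the membrane protease St14 (1.45 ± 0.35, adjusted p = 0.0605) and the vesicle GTPase Rab25 (1.04 ± 0.26, adjusted p = 0.0707). Of 14 other keratins, mostly of skin and stratified epithelia, 0 passed with limma and 0 were higher and 0 lower at an unadjusted p under 0.05, their median log2 fold change was -0.10, and 2 of 14 lay above 0. Krt80 (-0.28 ± 0.14) and Krt17 (-0.29 ± 0.23) had the smallest p. Among 12 endothelial junction genes 0 passed with limma and 4 were higher and 2 lower at an unadjusted p under 0.05, with Cldn5 at -0.53 ± 0.13 (adjusted p = 0.0679) and Afdn at 0.49 ± 0.13 (adjusted p = 0.0864). The KO array order of the 31 was seen in 0 of 12, against 13.2% of all genes, too few genes to set apart from that share.

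Markers of other cells were set beside the 31, array by array. The mean of 17 hepatocyte markers was 8.19, 6.82, 6.74, 8.18 and 6.68 in KO replicates 1 to 5, against 6.73, 6.72, 7.04, 6.82 and 6.77 in the controls. KO replicates 1 and 4 were high, while KO replicate 2, where the mean of the 31 was highest, lay within the control range. The KO array order 1, 2 and 4 above 3 and 5 was seen in 8 of the 17, against 13.2% of all genes. Their median log2 fold change was 0.70. At an unadjusted p under 0.05, limma gave 6 of the 17 as higher and 2 as lower, against 7.07% of all genes as higher. Of the 17, 2 rose, Tat (2.06 ± 0.40) and Hp (1.60 ± 0.34), and Cyp2e1 fell (-1.52 ± 0.31), against 1.3% of all genes that rose and 0.846% that fell. Without KO replicate 1 all 3 calls were lost (adjusted p of 0.0596 for Tat, 0.0912 for Hp and 0.0720 for Cyp2e1), and each was lost without some of the other arrays too. Albumin (Alb), named after its values were seen, read 11.11, 10.19, 9.49, 11.04 and 9.32 in the KO arrays, against 9.27, 9.44, 9.57, 9.16 and 8.92 in the controls. The mean of 12 neutrophil markers was 3.89, 5.57, 4.41, 5.11 and 4.33 in the KO arrays, against 2.99, 3.14, 3.47, 3.06 and 3.05 in the controls. All KO arrays were above all controls, with replicate 2 highest and replicate 1 lowest of the KO arrays. Of the 12, 6 rose, against 1.3% of all genes, led by S100a8 (3.16 ± 0.53), S100a9 (2.78 ± 0.43), Ngp (2.72 ± 0.42) and Retnlg (2.57 ± 0.53). Retnlg lost its call without KO replicate 4 or any of control replicates 2 to 5 (adjusted p reaching 0.0739), and the other 3 kept theirs whichever 1 array was left out.

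Mesothelial cells, the sheet on the liver surface, also make keratins 8, 18 and 19. The mean of 11 of their markers was 4.46, 4.48, 4.77, 4.74 and 4.89 in the KO arrays, against 4.71, 4.76, 4.54, 4.61 and 4.62 in the controls, and KO replicates 1 and 2, the highest for the 31, were the lowest there. Of the 11, 2 rose, Wt1 (0.91 ± 0.17) and Gpm6a (0.87 ± 0.20), 1 fell, Slc39a8 (-1.04 ± 0.11), and 8 did not pass. Over all genes 1.3% rose and 0.846% fell. Among the 8, Msln was at 0.05 ± 0.27 (adjusted p = 0.961) and Upk3b at -0.26 ± 0.24 (adjusted p = 0.683), both named after their values were seen. Wt1 lost its call without control replicate 4 or 5 (adjusted p reaching 0.0578), and Gpm6a kept its call only without control replicate 1 or 2 (otherwise reaching 0.119). The mean of the 26 further duct markers was 5.33, 5.33, 4.65, 4.88 and 4.54 in the KO arrays, against 4.24, 4.75, 4.15, 4.24 and 4.15 in the controls, with KO replicates 1 and 2 highest. Control replicate 2 exceeded KO replicates 3 and 5 only through 1 gene of the list, Tff2, a secreted trefoil protein of mucous epithelia. Tff2 read 5.97, 6.05, 5.03, 5.52 and 3.76 in the KO arrays, against 3.36, 11.25, 4.27, 4.11 and 4.19 in the controls, and was named after its values were seen. Without it the mean of the other 25 was 5.31, 5.30, 4.64, 4.85 and 4.57 in the KO arrays, against 4.27, 4.49, 4.15, 4.24 and 4.15 in the controls, and the groups did not overlap. Of 12 pan-endothelial markers the mean was 9.57, 9.63, 9.97, 9.83 and 9.94 in the KO arrays, against 9.52, 9.73, 9.70, 9.75 and 9.57 in the controls, lowest of the KO arrays in replicates 1 and 2. The part of other cells in the differences of the 31 genes was not tested.

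**Figure D5:**
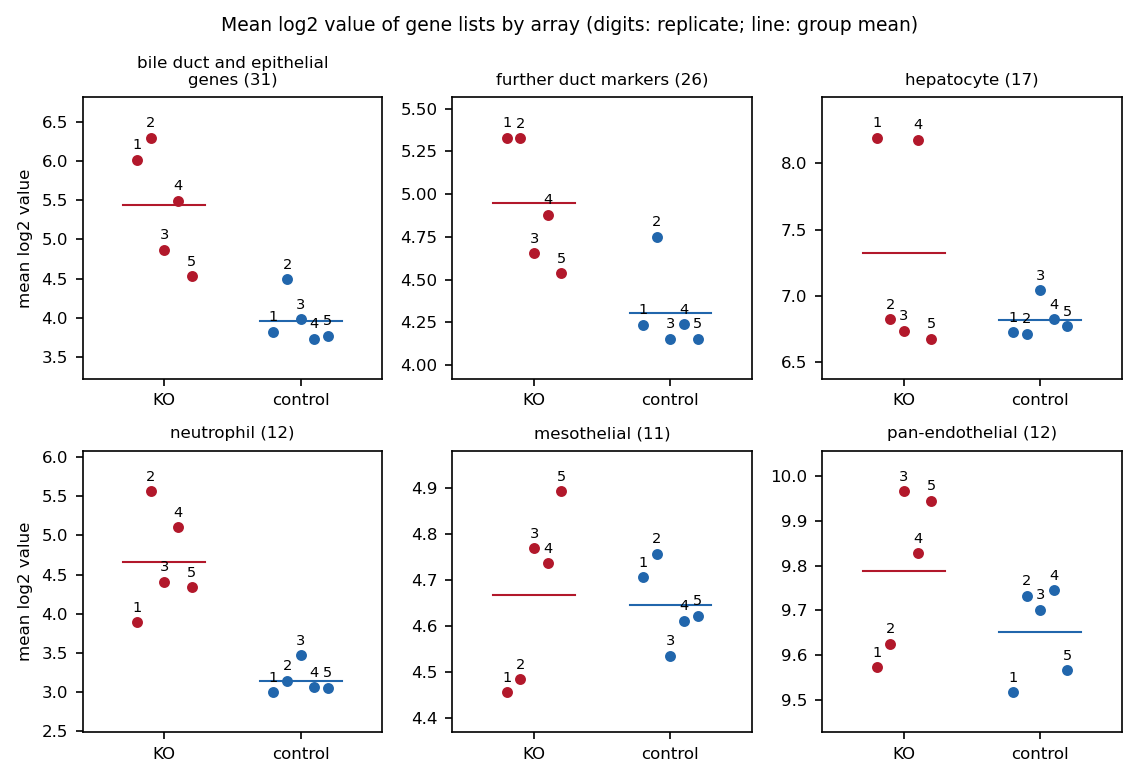
Mean log2 value per array of the 31 genes and of 5 marker lists, KO in red on the left and control in blue on the right of each panel, with the replicate number at each point and the group mean as a line. KO replicates 1 and 2 are highest for the 31 genes and the further duct markers, 1 and 4 for hepatocyte markers, 2 and 4 for neutrophil markers, and 3 and 5 for pan-endothelial markers. The point of control replicate 2 in the panel of further duct markers, 4.75, includes Tff2 at 11.25.

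For the genes outside the 31, likeness to them was the Pearson correlation with the mean of the 31 over the 10 arrays after each group's mean was subtracted, among genes at or above the median gene's mean, and is given without a test because the highest values were picked. Genes known only by a clone or prediction name were left out. St14 (0.98), the epithelial protease matriptase, came first, followed by Clu (0.97), the gene of the secreted chaperone clusterin, Sh2d4a (0.96), Eloc (0.96), Anxa13 (0.95), the tricellular junction gene Lsr (0.95), Dap3 (0.95), Baiap2l1 (0.95), Plet1 (0.95) and the mitochondrial phosphate carrier Slc25a3 (0.94). Without control replicate 1 these correlations were between 0.94 and 0.98. Of the 10, Clu (1.27 ± 0.27, adjusted p = 0.0327) and Sh2d4a (1.03 ± 0.19, adjusted p = 0.0170) rose. Clu lost its call when any 1 of the same 6 arrays as for Krt18 was left out (adjusted p reaching 0.0909), and Sh2d4a without control replicate 5 (0.0543). Plet1, an epithelial surface protein of progenitor cells, was at 2.18 ± 0.53 (adjusted p = 0.0654), with 7.70, 8.36, 6.04, 7.09 and 5.48 in the KO arrays and 4.06, 6.05, 4.36, 4.45 and 4.88 in the controls. Eloc and Dap3, with roles in transcription elongation and the mitochondrial ribosome, had the KO array order of the mean of the 31. Their group means differed little, at 0.03 ± 0.21 and -0.05 ± 0.10.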

How the data were processed

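Per the labels, total RNA of 10 samples was biotin-labelled and measured on 1-colour Affymetrix arrays. The authors' deposited values are RMA values on a log2 scale (RMA per the submitters' processing notes, without a version, and the log2 scale from their range). RMA gives the arrays 1 distribution, so no further normalization was applied. The platform annotation named 24705 of 25428 probe sets, none with several symbols (0). The 723 unnamed probe sets and 1 second probe set of a symbol were left out. All 31 members matched RefSeq by Entrez number. Scanner files and detection calls were not used here, so a fold change of a dim gene is a ratio of array values. With 5 arrays per group, their number limits the precision, and p-values reflect only how far pools of 3 mice differ. The groups were compared with limma 3.58.1 (R 4.3.3; lmFit and eBayes, all 10 arrays, no covariate), two-sided, with Benjamini-Hochberg adjustment over 24704 genes. Alternatives were a filter on dim genes, an intensity trend, array weights, the replicate number as a block, centred arrays, and each array left out. The procedure was tested on simulated data in which each gene was drawn independently, so the test does not cover genes that vary together as the 31 do. The members and 16 further lists (226 measured genes, 10 entries not analysed here) were chosen with earlier results of these data known. All members are named, with up to 4 called genes of each list by size or, where none passed, 2 by p, and 10 genes by likeness. Sox9, Aqp1, Tff2, Alb, Msln and Upk3b were added after their values were seen.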

Additional observations from a re-analysis of the deposited data

Results flagged for a closer look

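In 98 sets of 5 values (31 genes and 18 list means in each group), the gap of the highest or lowest array to its neighbour was divided by the range, and 7 sets exceeded 0.71, Dixon's critical value. Chance gives about 1 in 20 for separate sets, and 7 of 98 is near that share. These sets are not separate, since the genes vary together and some list means include them. All 7 were among the control arrays. Replicate 2 was far above the other controls for Prom1 (0.711), Dsp (0.749), Pkhd1 (0.725) and Atp1b1 (0.72). For these genes the values of control replicate 2 were 4.14, 4.06, 3.81 and 6.45. The mean of the further duct markers also stood out in control replicate 2 (0.859), but exceeded the critical value only with Tff2. That gene read 11.25 there and at most 4.27 in the other controls. Without Tff2, an alternative chosen after seeing the data, the ratio was 0.643, under the critical value. Control replicate 2 was still the highest control then, at 4.49. Replicate 1 was far below the other controls for Jup (0.744), at 6.37, and for the mean of the stellate and mesenchymal markers (0.713), at 5.54.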

How the results depend on the processing

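All 31 genes kept their direction under every alternative run in which they were tested, and their median log2 fold change (1.40) and mean difference (1.48) moved by less than the SD between arrays. Of 457 refits of single genes (8 of the 31 were not tested with dim genes left out), 356 stayed on their side of the threshold, 79 lost it and 22 gained it. Array weights gave 21 of the 31 genes as higher, 1070 genes in all and 49 genes of the other lists, against 13, 529 and 29. Same-numbered samples did not deviate together (correlations of -0.16 to 0.04 over genes), so the numbers do not pair them. With the replicate block 10 of the 31 passed, 275 genes in all and 18 of the lists. With 1 array left out, the counts were 2 to 19 of the 31, 287 to 737 in all and 13 to 38 of the lists. The cause of these changes was not tested. With 1 array left out, the log2 fold change of Eloc was -0.10 to 0.21, that of Msln -0.13 to 0.24 and that of Tff2 -0.68 to 1.29, the highest of Tff2 without control replicate 2 (adjusted p = 0.204). With dim genes left out 14 of the 23 tested passed, with an intensity trend 14 of 31, and with centred arrays 13. Of the 31 genes, 15 had a control mean under the array median, where dim signal limits how well a fold change is measured.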

Other observations

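Of 7 B and plasma cell genes 1, Jchain, rose (1.40 ± 0.23), with all KO arrays above all controls, while over all genes 1.3% rose. Of 8 T and NK cell genes 0 passed with limma (1 was higher and 0 lower at an unadjusted p under 0.05), Nkg7 (0.48 ± 0.18) and Cd3g (0.41 ± 0.23) having the smallest p. Of 10 Kupffer cell genes 0 passed (0 were higher and 0 lower at the unadjusted p), with C1qa at 0.41 ± 0.29 and Adgre1 at 0.74 ± 0.54, and their list mean was lowest of all arrays in control replicate 1, at 5.45. Of 12 stellate and mesenchymal genes 0 passed (4 were higher and 1 lower), with the collagen gene Col1a1 at 1.23 ± 0.33 (adjusted p = 0.0951) and Ngfr at -0.57 ± 0.19. Of 9 pancreatic and intestinal genes 0 passed (0 were higher and 1 lower), with Cdx2 at -0.41 ± 0.18 and Cela1 at -0.47 ± 0.24. Of 12 sinusoidal markers 7 fell, against 0.846% of all genes, among them Clec4g (-0.76 ± 0.14), Ctsl (-0.73 ± 0.11), F8 (-0.65 ± 0.15) and Dnase1l3 (-0.64 ± 0.14). Of these, Ctsl kept its call whichever 1 array was left out, while the others lost theirs without some (adjusted p reaching 0.0598, 0.116 and 0.104). Of the pan-endothelial markers Mcam rose (1.24 ± 0.11). It encodes the antigen of the isolation beads.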
